A study of Schizocardium californicum with 12 samples.

Results

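Lbr-1 is 1 of 27463 gene rows counted in larvae and juveniles of the hemichordate *Schizocardium californicum*. It is named in the annotation for the lamin B receptor and was taken by that name from the table of every library. It carries the identifier SCA14614, lies on the sequence chr1A_Sc2 of the v2.0 genome, and has 13 exons in 1 annotated transcript with an exon length of 5040 bases. The gene was chosen by its fold changes after irradiation, which were low in both stages, so its own irradiation values are given as a description, without a test. What follows describes its level in the 4 groups of the study, its relation to the other rows named Lbr and to the nuclear lamin, the difference between the stages, and the genes with the most similar levels.

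The study exposed animals to X-rays to find which transcripts are lost with the cells that irradiation removes. The groups were irradiated juveniles (200 Gy), control juveniles (0 Gy), irradiated larvae (120 Gy) and control larvae (0 Gy), with 3 libraries each. RNA was extracted 3 days after treatment, and each library came from 5 pooled animals, described by the study as an independent biological replicate. The dose differed between the stages, so a difference between irradiated juveniles and irradiated larvae cannot be told apart from one between doses. The libraries were mRNA libraries made from total RNA of whole animals, so a lower level in a library can come from fewer cells of a type or from less RNA per cell.

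In vertebrates the lamin B receptor is a protein of the inner nuclear membrane that binds B-type lamin and heterochromatin proteins, and so holds condensed chromatin at the nuclear edge. The membrane part of the protein is also a sterol reductase of cholesterol synthesis. In mammals it is known as the tether of heterochromatin in undifferentiated cells, where A-type lamins take over as cells differentiate. These roles are known from vertebrates and were not measured here.

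The libraries held between 7675726 and 26974509 reads assigned to genes, and 20780 genes passed the filter on low counts. Normalized counts are reads scaled to a common library size, and a gene was called where the adjusted p was at most 0.05. More genes were called between the stages than after irradiation: 62.6% of genes tested differed between control juveniles and control larvae and 60% between irradiated juveniles and irradiated larvae, against 21.9% between irradiated and control juveniles and 3.92% between irradiated and control larvae.

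Lbr-1 was lower in irradiated than in control animals in both stages, and lower in juveniles than in larvae under both treatments. In juveniles, Lbr-1 had 12.1, 21.1 and 14.1 normalized counts in the irradiated libraries, against 70.6, 40.9 and 95.5 in the control libraries. The highest irradiated juvenile library was below the lowest control juvenile library. In larvae, Lbr-1 had 36.9, 17.0 and 31.2 normalized counts in the irradiated libraries, against 211, 213 and 175 in the control libraries. Here too the groups did not overlap, and the gap between them was wider than in juveniles.

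**Figure D1:**
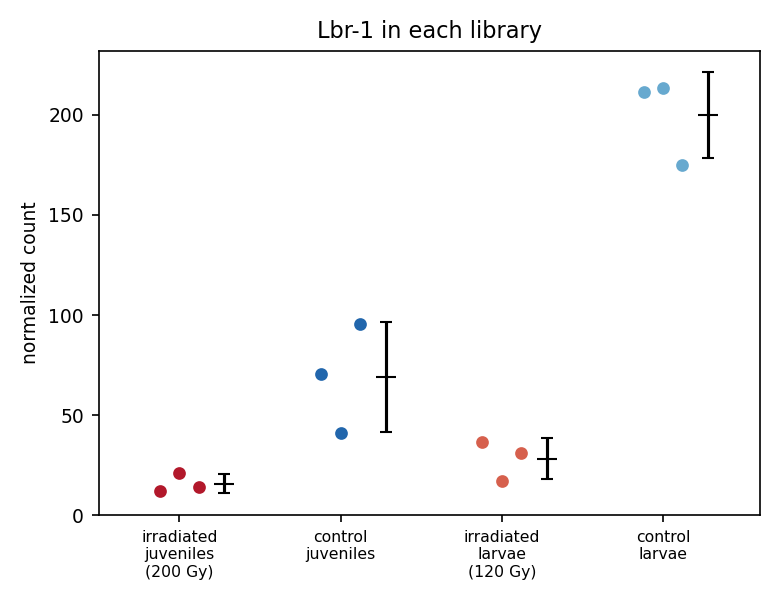
Normalized counts of Lbr-1 (vertical axis) in the 12 libraries by group; each point is 1 library of 5 pooled animals, and the bars show the mean and SD of 3 libraries. The 3 control larvae libraries, at 175 to 213, are above all others, and the irradiated libraries of both stages are at 36.9 or below.

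The group means were 15.8 ± 4.71 normalized counts in irradiated juveniles and 69.0 ± 27.3 in control juveniles (SD, n = 3 each), and 28.3 ± 10.3 in irradiated larvae and 199.9 ± 21.5 in control larvae (SD, n = 3 each). Fitted over all libraries, Lbr-1 was 4.58-fold lower in irradiated than in control juveniles, a log2 fold change of −2.20 with a standard error of 0.35 and a 95% interval of −2.96 to −1.43. In larvae it was 6.89-fold lower, a log2 fold change of −2.78 with a standard error of 0.33 and a 95% interval of −3.49 to −2.08. By size of fold change, this was place 266 from the lowest of 20780 genes in juveniles and place 91 in larvae. For comparison, 11.1% of all genes tested were called lower and 10.8% higher in irradiated juveniles, and 2.05% were called lower and 1.87% higher in irradiated larvae.

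The juvenile response less the larval response was 0.59 on the log2 scale (standard error 0.48, 95% interval −0.45 to 1.63). Over all genes this difference was called for 3.47%, with 1.6% lower and 1.87% higher.

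In the order of the group means, control larvae were followed by control juveniles, irradiated larvae and irradiated juveniles. The libraries of irradiated juveniles and irradiated larvae overlapped, since the irradiated larva library at 17.0 normalized counts was below the irradiated juvenile library at 21.1. The lowest control juvenile library, at 40.9, was just above the highest irradiated larva library, at 36.9. Only the control larvae stood clear of every other library by a wide margin.

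The control juveniles varied most in absolute terms. Their highest library was 2.33 times their lowest, and the SD of log2 levels was 0.60, against a median of 0.228 over all genes tested. The control larvae were the most even, with an SD of 0.159 on the log2 scale and a median of 0.255 over all genes. The coefficient of variation between libraries was 29.9% in irradiated juveniles, 39.6% in control juveniles, 36.2% in irradiated larvae and 10.8% in control larvae. Counting error alone would give 25.1%, 12%, 17.7% and 7.94% in the same groups. Each pool gave 1 library, so in any further spread, differences between animals and between preparations cannot be told apart.

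These read numbers were small. The 12 libraries held 900 reads of Lbr-1 together: 57 in irradiated juveniles, 234 in control juveniles, 100 in irradiated larvae and 509 in control larvae. The irradiated juvenile libraries had 12, 16 and 29 reads, which is 0.871, 1.65 and 1.08 CPM (counts scaled to library size), with exact 95% Poisson intervals of 0.45 to 1.52, 0.941 to 2.67 and 0.72 to 1.54. The lowest control juvenile library, with 28 reads, had 2.98 CPM with an interval of 1.98 to 4.31, which overlaps that of the second irradiated library. These intervals cover counting error only. No library was without the transcript, and it was present at a low level in every irradiated library.

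All 900 reads were placed uniquely by the authors' mapping, so no read was shared with another Lbr row, and 7 of them (0.778%) lay in introns. Reads that cross a junction between exons made up 25% of exon reads in irradiated juveniles (14 of 56, Wilson 95% interval 15.5 to 37.7%), against 45.3% in control juveniles (106 of 234, 39 to 51.7%). In larvae they made up 42.3% in irradiated animals (41 of 97, 32.9 to 52.2%) and 41.3% in control animals (209 of 506, 37.1 to 45.6%). The low share in irradiated juveniles rested on 1 library with 3 junction reads of 29 exon reads. The others had 5 of 11 and 6 of 16. The Wilson intervals pool the reads of a group's libraries and leave out the spread between libraries, so they do not test a difference between groups.

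The contrast of stages was not itself used to choose the gene and was tested. Its libraries also entered the irradiation contrasts that chose the gene, so its p-values are not independent of that choice. In control animals, Lbr-1 was 2.83-fold lower in juveniles than in larvae, with a log2 fold change of −1.50, a standard error of 0.30 and a 95% interval of −2.15 to −0.84. The difference passed edgeR's quasi-likelihood test (Benjamini-Hochberg adjusted p = 0.00077), and no control juvenile library reached a control larva library. Lower levels in control juveniles were common, since 29.8% of genes tested were called lower and 32.8% higher in this comparison, and Lbr-1 was place 2756 of 20780 from the lowest fold change. Leaving out each library in turn gave log2 fold changes of −1.83 to −1.26 with adjusted p-values of 0.00036 to 0.00372 by the same test.

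Between irradiated juveniles and irradiated larvae the difference was smaller, at −0.91 on the log2 scale (standard error 0.37, 95% interval −1.71 to −0.11). It passed edgeR's quasi-likelihood test narrowly (Benjamini-Hochberg adjusted p = 0.0478), in a comparison where 28.6% of genes were called lower and 31.4% higher, and the libraries of the groups overlapped. The call was lost under 4 of 8 other ways of processing, and in 8 of 12 fits with a single library left out, where the adjusted p ranged from 0.0149 to 0.213 with log2 fold changes of −1.16 to −0.63. By the same test, the adjusted p was 0.213 without irradiated larva replicate 1, 0.104 without irradiated larva replicate 3, 0.127 without irradiated juvenile replicate 1 and 0.139 without irradiated juvenile replicate 3. It was between 0.0545 and 0.0603 without any one of the control larva libraries or without control juvenile replicate 1. The direction was the same in each of these fits.

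The annotation names 2 further rows Lbr, which are context for Lbr-1. Both lie on another sequence, chr19A_Sc2, and are far shorter in exons: Lbr-2 (SCA18509) has 4 exons with 727 bases and Lbr-3 (SCA19176) has 9 exons with 801 bases. What parts of a lamin B receptor protein these models encode was not analysed here. Their irradiation values were not used to choose Lbr-1.

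Lbr-2 had 48.5, 50.1 and 55.8 normalized counts in irradiated juveniles, against 46.3, 19.0 and 32.9 in control juveniles. It had 137.9, 178.5 and 144.8 in irradiated larvae, against 180.1, 179.4 and 86.6 in control larvae. The irradiated juveniles were all above the control juveniles, and the larval groups overlapped. Lbr-2 did not pass edgeR's quasi-likelihood test in juveniles, with a log2 fold change of 0.64 (95% interval −0.06 to 1.35, Benjamini-Hochberg adjusted p = 0.183), nor in larvae, with 0.05 (−0.56 to 0.67, adjusted p = 0.952). The larval value changed sign when the low control larva library, replicate 3, was left out (−0.23).

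Lbr-3 had 46.5, 31.6 and 50.0 normalized counts in irradiated juveniles, against 34.1, 17.5 and 34.2 in control juveniles. It had 101.7, 105.1 and 138.8 in irradiated larvae, against 88.3, 91.8 and 118.7 in control larvae. The groups overlapped in both stages. The log2 fold change was 0.56 in juveniles (95% interval −0.04 to 1.17, adjusted p = 0.174) and 0.20 in larvae (−0.34 to 0.74, adjusted p = 0.718), neither past the quasi-likelihood test in edgeR (Benjamini-Hochberg adjusted). Neither row's intervals reach the values of Lbr-1, which was chosen for being low, in either stage. The difference in response between the rows was not tested in itself.

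In the contrast of stages the 3 rows had one direction. Lbr-2 was lower in control juveniles than in control larvae by a log2 fold change of −2.15 (adjusted p = 6.47e-05) and Lbr-3 by −1.77 (adjusted p = 1.02e-04), both from the quasi-likelihood test in edgeR (Benjamini-Hochberg adjusted), and neither gene's groups overlapped. In irradiated animals the same contrast gave −1.57 for Lbr-2 (adjusted p = 5.43e-04) and −1.40 for Lbr-3 (adjusted p = 4.23e-04) by the same test.

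Compared per exon length, in RPKM (reads per kilobase of exon, scaled to mapped reads), Lbr-1 was the lowest of the 3 rows in all 12 libraries. It averaged 0.177 ± 0.0684 RPKM in irradiated juveniles and 0.798 ± 0.323 RPKM in control juveniles, and 0.337 ± 0.130 RPKM in irradiated larvae and 2.34 ± 0.218 RPKM in control larvae (SD, n = 3 each). Lbr-2 averaged 3.78 and 2.20 RPKM in irradiated and control juveniles and 12.0 and 10.8 RPKM in irradiated and control larvae. Lbr-3 averaged 2.61 and 1.58 RPKM in irradiated and control juveniles and 7.97 and 6.26 RPKM in irradiated and control larvae. The highest level of Lbr-1, in control larvae, was thus below every larval mean of the other rows.

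**Figure D2:**
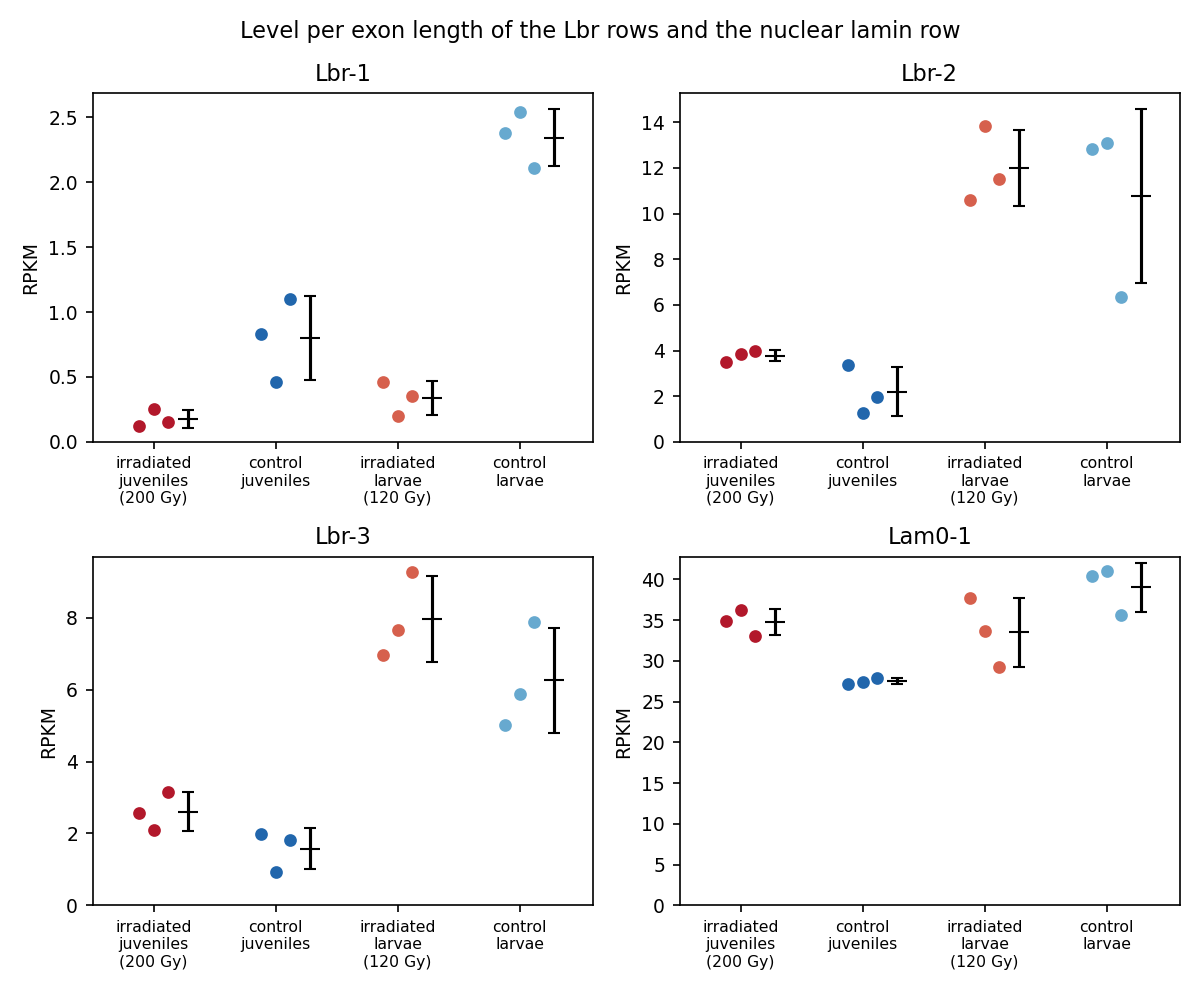
Level per exon length (vertical axes, RPKM, each panel with its own scale from 0) of Lbr-1, Lbr-2, Lbr-3 and the lamin row Lam0-1 in the 12 libraries by group; points are libraries and bars are the mean and SD of 3. In the Lbr-1 panel the irradiated libraries lie below the controls in both stages, whereas irradiated and control larvae overlap in the other panels.

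As a share of the summed RPKM of the 3 rows, Lbr-1 made up 1.95, 4.09 and 2.15% in irradiated juveniles, against 13.4, 17.4 and 22.5% in control juveniles. It made up 2.55, 0.926 and 1.65% in irradiated larvae, against 11.7, 11.8 and 12.9% in control larvae. The shares were thus nearer between the stages than the levels were, and the irradiated and control libraries did not overlap in either stage. The lower shares after irradiation follow largely from the falls for which Lbr-1 was chosen. Within the set of genes tested, 9.74% of genes had a lower RPKM than Lbr-1 in irradiated juveniles and 21.3% in control juveniles, and 17.9% had a lower RPKM in irradiated larvae and 41.2% in control larvae. Even in control larvae Lbr-1 was below the median gene, which was at 3.54 RPKM.

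One row carries the name of a nuclear lamin, the filament protein of the nuclear lamina to which the vertebrate receptor binds. Lam0-1 (SCA10073, chr10A_Sc2, 17 exons) is named for the *Drosophila* lamin Dm0. Rows named Lamc1 are laminins of the extracellular matrix and were not counted as lamins. Lam0-1 had 2839, 2667 and 2636 normalized counts in irradiated juveniles, against 2042, 2177 and 2161 in control juveniles. It had 2678, 2528 and 2095 in irradiated larvae, against 3187, 3057 and 2575 in control larvae.

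The lamin therefore lay higher in all 3 irradiated juvenile libraries than in the control juvenile libraries, while the larval groups overlapped. Its log2 fold change of 0.35 in juveniles (95% interval 0.09 to 0.62) was not past edgeR's quasi-likelihood test (Benjamini-Hochberg adjusted p = 0.0572), though it was with DESeq2, with limma voom, in a fit of the 6 juvenile libraries alone, and in edgeR without irradiated larva replicate 1 (adjusted p = 0.037), irradiated larva replicate 3 (0.0289) or control larva replicate 3 (0.0393). In larvae it was −0.27 (−0.54 to −0.01, adjusted p = 0.238), and the difference of responses, 0.62, did not pass the same test (adjusted p = 0.0683). That difference was called by edgeR without control larva replicate 3 (0.71, adjusted p = 0.0383) and without irradiated larva replicate 1 (0.74, adjusted p = 0.05), and by DESeq2. Control juveniles were lower than control larvae by a log2 fold change of −0.47 (adjusted p = 0.00482).

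Lam0-1 averaged 34.7 ± 1.60 RPKM in irradiated juveniles and 27.5 ± 0.400 RPKM in control juveniles, and 33.5 ± 4.25 RPKM in irradiated larvae and 39.0 ± 2.99 RPKM in control larvae (SD, n = 3 each). Per 1000 RPKM of Lam0-1 there were 5.07 ± 1.78 RPKM of Lbr-1 in irradiated juveniles and 28.9 ± 11.4 in control juveniles. In larvae there were 10.0 ± 3.53 in irradiated animals and 60.0 ± 1.66 in control animals (SD, n = 3 each). The proportion of receptor transcript to lamin transcript was lower in irradiated than in control animals in each stage. This follows largely from the falls for which Lbr-1 was chosen and is no separate result. The 3 control larva libraries, at 58.8, 61.9 and 59.3, were nearly equal.

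Genes of the lamina and inner nuclear membrane other than Lbr-1 mostly did not pass the test. Of 21 tested, 3 fell (14.3%, against 11.1% of all genes) and 1 rose in irradiated juveniles, where 10.8% of all genes rose. In irradiated larvae 1 fell (4.76%, against 2.05% of all genes). The median log2 fold change was −0.03 in juveniles and −0.13 in larvae, beside −0.04 and 0.01 over all genes. The counts are of few genes, and with any single library left out, controls included, the juvenile count of 3 was 1 or 2. Toip2-2, named for a torsin-interacting protein, fell in both stages. It had 217.4, 138.4 and 161.6 normalized counts in irradiated juveniles against 401.8, 364 and 347.6 in control juveniles. This was a log2 fold change of −1.10 (edgeR's quasi-likelihood test, Benjamini-Hochberg adjusted p = 0.00143). In larvae the fold change of Toip2-2 was −0.95 (adjusted p = 0.021 by the same test). The larval call was lost without irradiated larva replicate 2 (adjusted p = 0.066) or 3 (0.07) and without control larva replicate 1 (0.0674) or 2 (0.0526), all in edgeR. Syne1-4 and Syne1-5, named for a nesprin that links nucleus and cytoskeleton, fell in irradiated juveniles (log2 fold changes −0.33 and −0.65), but the libraries of Syne1-5 overlapped. With each of the 12 libraries left out in turn, the call of Syne1-4 held in 5 fits and that of Syne1-5 in 1, with adjusted p-values in edgeR of up to 0.13 and 0.158. Baf-2, named for the barrier-to-autointegration factor that bridges chromatin and envelope, rose in irradiated juveniles (log2 fold change 0.82), except without irradiated juvenile replicate 3 (adjusted p = 0.0601 in edgeR) or control juvenile replicate 2 (0.0528), and was at 0.42 in larvae, not past the test. Face1, named for the protease that trims prelamin, had values of 0.33 in juveniles and 0.01 in larvae, neither past the test. None of these members had a fold change as low as that of Lbr-1 in the same stage. Lbr-1 was chosen for its low fold changes, so this order does not set it apart.

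Chromatin proteins with which the vertebrate receptor acts, or that share its heterochromatin, were likewise divided. Of 16 tested, 2 fell and 1 rose in each stage. Thus 12.5% fell, beside 11.1% of all genes in juveniles and 2.05% in larvae. The share of all genes that rose was 10.8% in juveniles and 1.87% in larvae. The median log2 fold changes of the 16 were −0.06 in juveniles and −0.18 in larvae. The 2 that fell in larvae were 1 in 9 of 12 fits with a library left out, among them those without any one larval library, and 1 to 4 over the other alternatives. Uhrf1-1, named for a protein that keeps DNA methylation through replication, fell in both stages, with log2 fold changes of −0.83 in juveniles (edgeR's quasi-likelihood test, Benjamini-Hochberg adjusted p = 0.00187) and −0.90 in larvae (adjusted p = 0.00697). Uhrf1-2 was called lower in larvae (−1.57, adjusted p = 0.0459 in edgeR), a call that held in 2 of 12 fits with a library left out (adjusted p up to 0.14), and was at −0.95 in juveniles, not past the test. Hells, a remodeller of silent chromatin, fell in juveniles (−1.10) and was at −0.69 in larvae, not past the test. Hdac3, a histone deacetylase, rose in both stages, with 520.8, 598.3 and 521.7 normalized counts in irradiated juveniles against 366.5, 372.8 and 362.5 in control juveniles (log2 fold change 0.57), and a log2 fold change of 0.70 in larvae. Hdac1-1 had 0.24 in juveniles and 0.08 in larvae. Cbx1-1, named for a heterochromatin protein of the family the vertebrate receptor binds, had −0.11 in juveniles and −0.12 in larvae, and neither gene passed the test.

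Sterol synthesis is the second pathway in which the vertebrate receptor takes part. Of 26 sterol genes tested, 2 fell (7.69%, against 11.1% of all genes) and 5 rose in irradiated juveniles, where 10.8% of all genes rose. Leaving out 1 library gave 0 to 2 lower and 2 to 5 higher. Without any one juvenile library, or without irradiated larva replicate 1, the lower count was 0 or 1. The higher count was 2 without irradiated juvenile replicate 1 and 3 without irradiated juvenile replicate 2 or 3 or control juvenile replicate 1 or 2. In irradiated larvae the quasi-likelihood test in edgeR called none, where 2 lower and 1 higher had an unadjusted p under 0.05, DESeq2 called 1 and limma voom called 0. The share of all genes at that unadjusted p was not computed. The genes that rose in juveniles include Kime-1, Pmvk and Mvd1, named for consecutive enzymes of the mevalonate pathway, with log2 fold changes of 1.21, 0.77 and 0.87, and Nsdhl-2, a sterol dehydrogenase, with 0.70. The call of Mvd1 was lost without any one of the 6 juvenile libraries (adjusted p up to 0.0806 in edgeR), and that of Pmvk without irradiated juvenile replicate 1 (0.0606). Those that fell were Sc5d-2, a sterol desaturase, at −0.97, and Scap-2, an escort of the sterol-responsive transcription factor, at −0.38. With a library left out, the call of Sc5d-2 held in 10 of 12 fits, being lost without replicate 1 of the irradiated or of the control juveniles, and that of Scap-2 in 5 of 12 (adjusted p up to 0.0732 and 0.102 in edgeR). Hmdh, the rate-limiting reductase of the pathway, had −0.19 in juveniles and −0.20 in larvae, and Thic-2, an acetyl-CoA thiolase, had 0.43 in juveniles and 0.06 in larvae, none past the test.

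Between the stages, sterol genes and Lbr-1 had the same direction. Of the 26 genes, 19 were called lower in control juveniles than in control larvae and 1 higher (73.1% lower, against 29.8% of all genes). Their median log2 fold change was −1.12. The share of all genes called higher was 32.8%. Cp51a and Msmo1, the enzymes named for the steps just before and after the sterol reductase step in vertebrates, were looked up after the values had been seen. Msmo1 had a log2 fold change of −1.63 (edgeR's quasi-likelihood test, Benjamini-Hochberg adjusted p = 6.68e-06) and Cp51a one of −0.55 (adjusted p = 0.0619, not past the test).

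**Figure D3:**
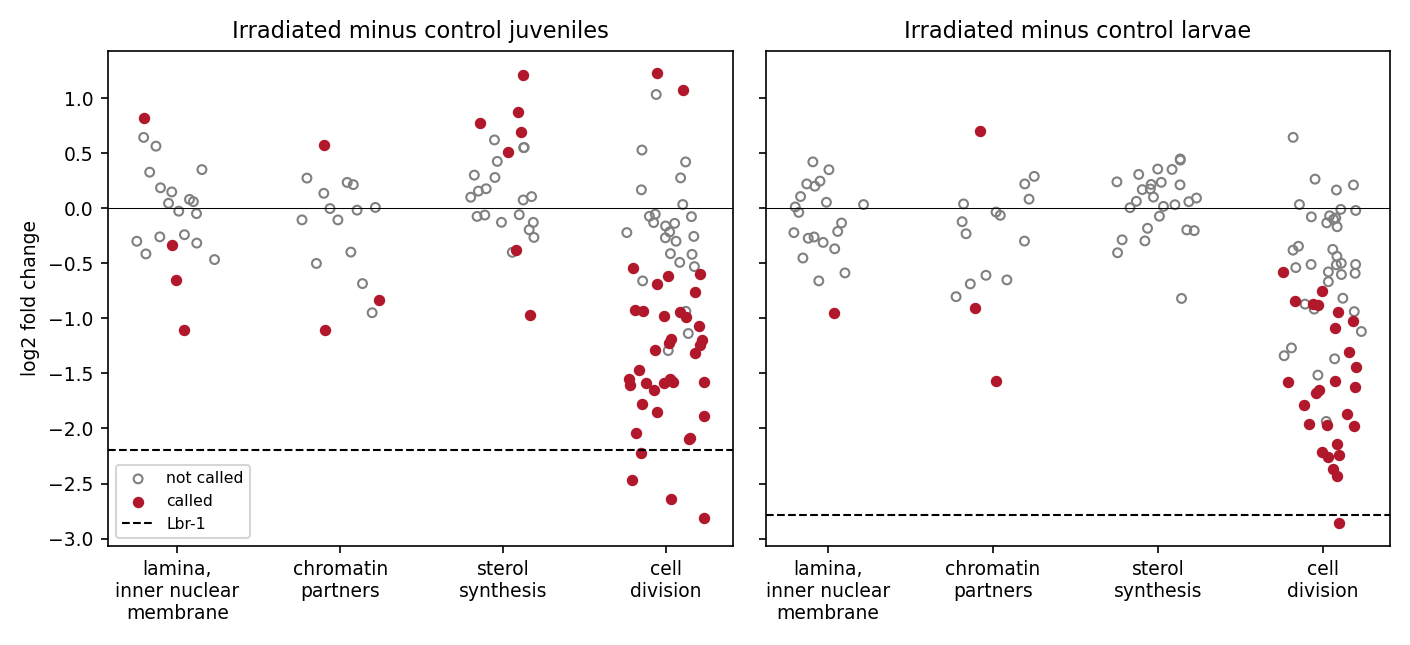
Log2 fold change of each tested member of 4 gene lists (vertical axis, irradiated minus control) in juveniles (left) and larvae (right); filled points passed the test (adjusted p at most 0.05), open points did not, and the dashed line is the value of Lbr-1, which is in none of the columns. The line, at −2.20 in juveniles and −2.78 in larvae, lies below every member of the first 3 lists and crosses the lower end of the cell division genes. Lbr-1 was chosen for low values in both contrasts, so a low line follows from that choice.

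Genes of cell division held most of the members that fell. Of 63 tested, 36 fell and 2 rose in irradiated juveniles (57.1% lower, against 11.1% of all genes), and 27 fell and 0 rose in irradiated larvae (42.9% lower, against 2.05%). The share of all genes that rose was 10.8% in juveniles and 1.87% in larvae. In larvae no member was higher at an unadjusted p under 0.05, and 26 fell in both stages. The shares of all genes for these counts were not computed, so the counts cannot be set against a background. The median log2 fold change was −0.94 in juveniles and −0.87 in larvae. The list includes 9 genes of the study's own tables, which were drawn from these libraries; without them, 27 of 54 fell in juveniles (50%) and 19 of 54 fell in larvae (35.2%).

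Lbr-1, chosen for its low fold changes, lay at the low end of these genes, since 4 members had a lower fold change than Lbr-1 in juveniles and 1 in larvae. Nusap, a spindle-associated protein, had 16.2, 13.2 and 15.0 normalized counts in irradiated juveniles, against 91.3, 54.1 and 129.6 in control juveniles, a log2 fold change of −2.64 (edgeR's quasi-likelihood test, Benjamini-Hochberg adjusted p = 1.13e-04). In larvae Nusap had a log2 fold change of −2.86 (adjusted p = 2.12e-04 by the same test). Anln, named for anillin of the cleavage furrow, fell in both stages, with log2 fold changes of −2.81 in juveniles and −1.97 in larvae. Aspm-1, a spindle pole protein, fell likewise (−1.77 in juveniles, −2.43 in larvae), as did Ince, named for a member of the chromosomal passenger complex (−1.24 in juveniles, −2.26 in larvae).

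The other members with a lower fold change than Lbr-1 in juveniles, named after their values were seen, were Paf15, a partner of the replication clamp (−2.47, adjusted p = 5.97e-04 in edgeR), and Cks1-1, a subunit of cyclin-dependent kinases (−2.22, adjusted p = 0.0442). The call of Cks1-1 held in 3 of 12 fits with a library left out (adjusted p up to 0.151). Cks1-1 was near the floor, with 0, 0 and 4.37 normalized counts in irradiated juveniles against 11.0, 5.85 and 12.9 in control juveniles. Its log2 fold change ranged from −6.34 to −1.79 over those fits, so its order relative to Lbr-1 is not settled. Neither Paf15 nor Cks1-1 was called in larvae in the fit of all libraries. Paf15 stayed uncalled there under 5 of 8 other ways of processing and was called under the rest. With a library left out, Paf15 stayed uncalled in larvae in 10 of 12 fits (adjusted p of 0.0315 to 0.158 in edgeR). Cks1-1 stayed uncalled in 11 of 12.

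Members named by the rule also fell less than Lbr-1 or did not pass the test. Cnd1, a condensin subunit, fell in both stages (log2 fold changes of −1.31 in juveniles and −1.98 in larvae), as did Ki67-1, named for the proliferation marker that coats mitotic chromosomes (−1.47 in juveniles, −0.94 in larvae). Pcna-1, the sliding clamp of replication, and Mcm7, a subunit of the replicative helicase, are named as the members with the highest level per length among those not called in either stage. Pcna-1 had −0.30 in juveniles and −0.58 in larvae, and Mcm7 had −0.14 in juveniles and −0.44 in larvae, where Mcm7 was called under 4 of 8 other ways of processing. Other replication genes, named after their values were seen, fell in both stages: Mcm2 (−0.94 in juveniles, −1.02 in larvae) and Mcm5 (−0.76 in juveniles, −1.09 in larvae), further helicase subunits, and Rir2-2, named for a ribonucleotide reductase subunit (−2.05 in juveniles, −1.57 in larvae). The juvenile call of Mcm5 was lost without irradiated juvenile replicate 1 or 3 (adjusted p = 0.0759 each in edgeR) or control juvenile replicate 2 (0.0516).

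The cell division genes were also mostly lower in control juveniles than in control larvae, as Lbr-1 was. Of the 63, 33 were called lower and 3 higher (52.4% lower, against 29.8% of all genes), with a median log2 fold change of −0.66. The share of all genes called higher was 32.8%. Nusap was lower by a log2 fold change of −1.26 in this contrast, close to the −1.50 of Lbr-1.

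The genes with levels most like those of Lbr-1 were looked for over all 12 libraries. The measure was the root mean square difference between log2 CPM, each gene centred on its own mean, among 17579 genes with a mean of at least 20 normalized counts. The median gene was 1.50 from Lbr-1, whose own root mean square spread was 1.39. The nearest gene was Nusap at 0.310, followed by Tlr6-1, named for a Toll-like receptor, at 0.337 and Ccna-1, named for cyclin A, at 0.385. Next came Dlgp5, a spindle microtubule protein, at 0.395, Hmmr, a microtubule-associated hyaluronan receptor, at 0.408, and Tpx2, a spindle assembly factor, at 0.417. Ctk2, named for a C-terminal motor kinesin, was at 0.417, Ki11a, a spindle kinesin, at 0.460, and Aspm-1 at 0.474.

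Of the 10 nearest genes, 7 were on the cell division list. Among the first 100 of the 17579 genes compared were 24 of the 55 cell division genes compared. The likeness includes the irradiation contrasts that chose Lbr-1, so it is a description. Most of the 10 genes are also in the study's tables, drawn from these libraries by falls after irradiation. They are Nusap, Tlr6-1, Dlgp5, Hmmr, Ctk2, Ki11a and Aspm-1, and the counts were not made without them. The lamin was not among the similar genes: Lam0-1 was 1.37 away, at place 4842. Lbr-2 was 1.50 away, at place 8728, and Lbr-3 was 1.46 away, at place 7761.

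**Figure D4:**
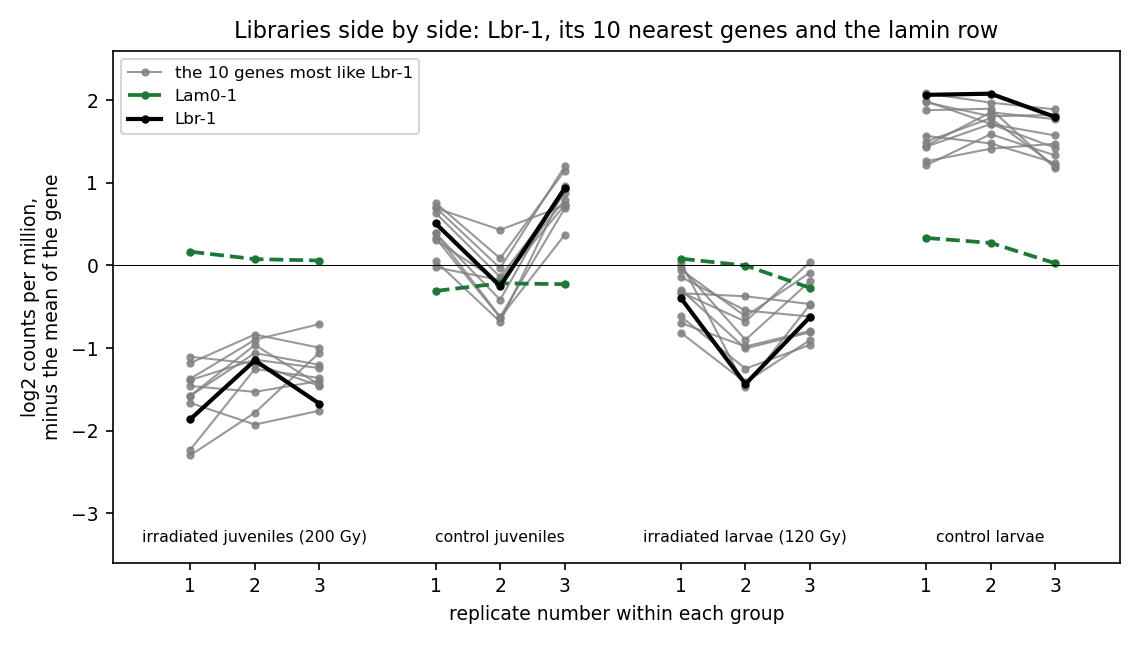
Log2 CPM minus each gene's own mean (vertical axis) in the 12 libraries (horizontal axis, replicate numbers within each group, which carry no order) for Lbr-1 (black), the 10 genes most like it (grey) and the lamin row Lam0-1 (green, dashed). Lbr-1 and the 10 genes are highest in control larvae and dip in control juvenile replicate 2, while Lam0-1 stays within about 0.33 of its mean. The 10 genes were picked for likeness over these same 12 libraries, so shared peaks and dips follow from that choice.

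The cell division genes were also compared with Lbr-1 in the order of replicates within each group, which no group mean holds. Lbr-1 was lowest in replicate 2 and highest in replicate 3 of the control juveniles. The same replicate was lowest for 48 of the 63 cell division genes (76.2%), against 44.4% of all genes tested, and both the lowest and the highest replicate were the same for 40 (63.5%), against 24.4%. In the other groups, lowest and highest replicates were the same as those of Lbr-1 for 22.2% of cell division genes in irradiated juveniles (15% of all genes), 23.8% in irradiated larvae (15.9%) and 30.2% in control larvae (17.2%). The replicate order was thus shared most often in the group where Lbr-1 varied most. The libraries of a group are the same for every gene, so these shares describe 3 libraries and are not a test.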

How the data were processed

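RNA of 12 pools of whole animals was sequenced as paired reads in a single lane. The authors mapped the reads to the v2.0 genome with CLC Genomics Workbench (version not given in the sources used here) and deposited, for each library, total gene reads as counts without normalization (exon plus intron reads), unique reads and junction reads. The RPKM values were also calculated by the authors, per exon length and mapped reads, and were used only to compare levels between genes.

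Total gene reads were fitted with edgeR 4.0.16 in R 4.3.3: filterByExpr kept 20780 genes and left out 6683, TMM factors were 0.931 to 1.07, and all 12 libraries shared 1 fit with a mean per group. Quasi-likelihood tests were two-sided, with Benjamini-Hochberg adjustment over all genes tested and calls at 0.05 or less. Log2 CPM used a prior count of 2. P-values measure the spread between pools. The procedure was run on simulated counts with changes in irradiated larvae only, and only the larval irradiation contrast was checked. The simulation had no difference between stages and the same dispersion for every gene, so it does not check the other contrasts.

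Lbr-1 and the lists of genes were chosen with earlier results of these data known. Named list members were those called in an irradiation contrast with the lowest p, at most 6 a list, and the highest 2 per length that were not called; the 10 genes most like Lbr-1 were added, of which 1 is not reported here. Neighbouring genes were not analysed here, as gene positions were not used, and no sequence was used. Alternatives were median-of-ratios size factors, no filter beyond 1 count, DESeq2 1.42.0, limma 3.58.1 voom, a replicate block, exon reads only, unique reads only, only the 6 libraries compared, and leaving out each library in turn.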

Additional observations from a re-analysis of the deposited data

Results flagged for a closer look

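The sterol dehydrogenase gene Nsdhl-2 was called for a difference between the stages in its response to irradiation. It was the 1 gene called among 26 sterol genes tested, where 3.47% of all genes were called in either direction. A single call of this kind is thus close to the share over all genes. It had 541, 520.5 and 482.9 normalized counts in irradiated juveniles, against 289.8, 353.8 and 310.2 in control juveniles, and 661.3, 688.2 and 742 in irradiated larvae, against 704.8, 738.2 and 960.3 in control larvae. The juvenile response less the larval response was 0.90 on the log2 scale (edgeR's quasi-likelihood test of the difference, Benjamini-Hochberg adjusted p = 0.0274), while 1.87% of genes tested were called in this direction. How this difference moves under other processing or with a library left out was not examined. The stages received different doses, which cannot be told apart from the stage.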

How the results depend on the processing

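Lbr-1 kept its direction in each contrast under every alternative that was run, and its difference between control juveniles and control larvae stayed past the threshold in all of them, at −1.55 to −1.46 on the log2 scale beside the range over left-out libraries given above. Leaving out a library in turn gave −2.44 to −1.86 for irradiated against control juveniles and −3.03 to −2.54 for irradiated against control larvae. The difference of Lbr-1 between irradiated juveniles and irradiated larvae was no longer called with limma voom (−0.92, adjusted p = 0.0953), with the replicate block (−0.89, adjusted p = 0.0683), with exon reads only (−0.90) and with only the 6 libraries compared (−0.90), and ranged from −1.16 to −0.63 with a library left out. The higher level of Lam0-1 in irradiated juveniles was called with DESeq2 (0.34), limma voom (0.35) and 6 libraries (0.37), and ranged from 0.32 to 0.39 with a library left out. The larval value of Lbr-2 changed sign without irradiated larva replicate 2 (−0.06) and without control larva replicate 3 (−0.23), with a range of −0.23 to 0.23. Other values near 0 changed sign in larvae or juveniles without passing the test. Face1 in larvae was −0.00108 with median-of-ratios factors, −0.00581 with DESeq2 and −0.0837 to 0.0675 with a library left out. With a library left out, Mvd1 in larvae ranged from −0.0105 to 0.379, Hmdh in larvae from −0.422 to 0.0316 and in juveniles from −0.309 to 0.0708, and Thic-2 in larvae from −0.147 to 0.195.

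Counts of list members moved by a few genes. Lamina genes called lower in larvae, 1 in the fit above, were 2 without the filter, with DESeq2, limma voom, exon reads and unique reads, and 0 with 6 libraries, with 0 to 1 over left-out libraries. In juveniles the 3 lamina genes called lower became 1 without the filter and with the block, and 1 to 2 over left-out libraries, and the 1 called higher became 2 with DESeq2, limma voom and 6 libraries, and 0 to 2 over left-out libraries. Chromatin genes called lower in larvae, 2 in the fit above, were 4 with DESeq2, 1 with the block, exon reads and 6 libraries, and 1 to 2 over left-out libraries, and the 1 called higher became 0 with 6 libraries. Chromatin genes called higher in juveniles were 1 to 2 over left-out libraries. Sterol genes called lower were 1 in larvae with DESeq2, and in juveniles 1 without the filter and 0 to 2 over left-out libraries. Sterol genes called higher in juveniles were 3 with limma voom and 2 to 5 over left-out libraries. Cell division genes called higher in juveniles were 1 without the filter, with the block and with exon reads, and 1 to 2 over left-out libraries. The causes of these changes were not tested. Same-numbered libraries showed no strong shared deviation (correlations of −0.0832 to 0.0632 over genes). The labels do not say whether equal numbers mark paired pools, and these correlations cannot settle it. With the replicate block, 117 of 124 values kept direction and call.

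With 57 reads of Lbr-1 in irradiated juveniles, counting error limits how closely the residual level there can be given.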
